A study of Mus musculus with 15 samples.

Results

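The interferon response and antigen presentation genes described here are 38 genes taken from a fixed list of names, and all 38 were found among the 24831 gene names of the table. They were split by role into 3 transcription factors, 4 sensors of viral RNA with their regulator, 25 antiviral effectors and 6 genes of antigen presentation. The rule that chose them uses names and no measured value, but it was set with earlier results of these data known. Interferons bind receptors that act through Janus kinases on STAT proteins, and a complex that holds Stat2 and Irf9 then switches on genes through the interferon-stimulated response element. The induced genes include sensors of foreign RNA, proteins that block viral entry, translation and budding, and the machinery that cuts peptides and loads them on class I molecules of the major histocompatibility complex. In brain tissue this program is expressed at a low basal level, chiefly in microglia, astrocytes, vessels and the brain's coverings.

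RNA was taken at postnatal day 15 from the hypothalamus of outbred CD-1 mice. The groups were PGM, PGF, HM, HF and Control, with 3 samples each, and the series title concerns effects of thyroid hormone in the F2 generation. All groups share strain, age and tissue, and the labels used here give no genotype or treatment behind the codes, nor whether animals were pooled. The values are RPKM, read counts scaled to transcript length and to the mapped reads of a library, which the authors deposited as 1 mean per group. A difference below is that of log2(mean RPKM + 0.5), and a gene was counted where it reached 1.5-fold. With no value per library, no difference could be set against the spread between replicates, and no p-value is given. The 4 comparisons with Control share the same Control mean.

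The tissue label was checked with 11 markers of hypothalamic neurons, all of which had a mean of at least 1 RPKM. Their summed level was 1527 RPKM in PGM, 1389 in PGF, 1878 in HM, 1847 in HF and 2055 in Control. Markers of neighbouring tissues differed between the groups, with thalamic markers summing to 698, 647, 481, 388 and 409 RPKM in the same order, and pituitary hormone genes to 2012 RPKM in PGF against 58.5 to 112 in the other groups. The Y-linked gene Ddx3y was at 30.4, 32.0, 16.8, 15.9 and 2.52 RPKM in the same order. The Y-linked Eif2s3y was at 27.5, 24.8, 10.1, 10.5 and 2 RPKM, and Uty was also lowest in Control. The X-linked RNA Xist ran the other way, at 14.2, 11.6, 26.4, 35.4 and 44.0 RPKM. The groups thus differed in sex-linked genes, and in the Y-linked ones HM and HF lay close together. The labels used here give no sex, and the part of sex in the members' differences was not tested in any comparison. In bulk tissue, fewer cells of a type and less RNA per cell cannot be told apart.

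The members were expressed at low levels. Their median was 2.77 RPKM, against 18.8 RPKM over the 17481 genes that averaged 1 RPKM or more and were kept, and 23 of the 38 members lay under 5 RPKM. Of the members, 36 passed this minimum, Parp14 and Oas1a did not, and no member was listed at 0 in any group. The antigen presentation genes H2-D1 and B2m were at the top with means of 88.6 and 81.4 RPKM, followed by Cmpk2 with 31.7 and Bst2 with 24.5. The span between the highest and the lowest of the 5 groups had a median of 0.50 on the log2 scale for the members. For all genes kept, whose median level was higher, it was 0.23. Among the members the span ran from 0.12 in Cmpk2 to 1.10 in Ifit1. No span was computed for genes of a like level, so the part of the low level in this was not tested.

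HF was the group with the highest level for 28 of the 38 members, and for 24.6% of all genes kept. PGM was the highest for 2 members (29% of all genes), PGF for 2 (13.3%), HM for 0 (7.57%) and Control for 5 (25%). HF was the lowest group for 0 members, against 8.76% of all genes. PGM was the lowest for 16 members (17.8%), PGF for 4 (27.7%), HM for 10 (21.9%) and Control for 8 (23.3%). These shares, and those of genes higher or lower by any size below, were not computed for genes of a like low level. The part of the low level in these counts was thus not tested. The heat map of differences from Control shows this as a column of mostly higher values in HF beside mixed or lower values in PGM, PGF and HM.

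**Figure D1:**
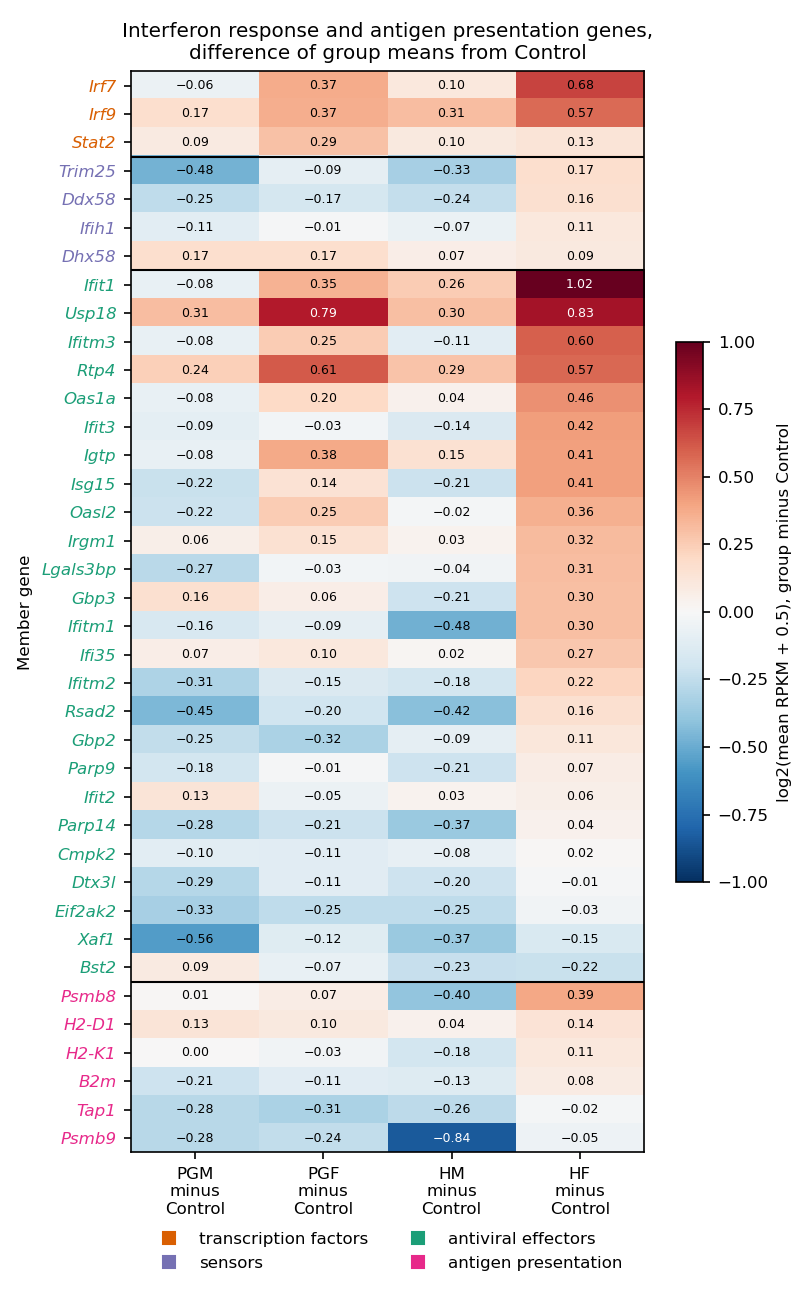
Difference of log2(mean RPKM + 0.5) between each of 4 groups and Control for the 38 members, ordered by role and by the HF difference, with the value printed in each cell. Red is higher and blue lower than Control, and 32 of 38 members were higher in HF (31 with quantile normalization).

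The comparison of HF with Control asks which members differed in this group. Irf7, Irf9 and many antiviral effectors were higher in HF, while Stat2, the sensors and most antigen presentation genes differed little. Of the 38 members, 32 were higher and 6 lower in HF, where 58.6% of all genes kept were higher. The threshold of 1.5-fold was reached upwards by 4 members and downwards by 0. Among all genes kept, 0.658% reached it upwards and 0.172% downwards in HF, and 1.35% upwards among those with a mean of 1 to 10 RPKM. Quantile normalization left 31 members higher, with Cmpk2 turned. The median difference was 0.17 over the members and 0.02 over all genes. By role it was 0.57 for transcription factors, 0.13 for sensors, 0.30 for effectors and 0.10 for antigen presentation.

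Irf7, the factor that amplifies interferon production (chromosome 7, 141262706 to 141266481 in GRCm38), was at 1.20 RPKM in PGM, 1.79 in PGF, 1.40 in HM, 2.33 in HF and 1.27 in Control. HF stood above the other groups, and its difference from Control was 0.68. All 5 Irf7 transcripts were higher in HF, by 0.63 to 0.72. Irf9, the DNA-binding partner of Stat2 (chromosome 14, 55603571 to 55610030), was at 7.41 RPKM in PGM, 8.58 in PGF, 8.21 in HM, 9.92 in HF and 6.54 in Control. Its difference in HF was 0.57, just under the threshold, and Control was the lowest of the groups. Stat2 was at 7.58, 8.77, 7.63, 7.77 and 7.08 RPKM in the same order and differed by 0.13 in HF. Exons of Irf7 overlap those of Phrf1 and exons of Irf9 those of Rnf31 in the annotation, so part of their signal may not be their own.

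The sensors were higher in HF in 4 of 4 members, each by a small amount. Trim25, the ubiquitin ligase that activates the sensor encoded by Ddx58, was at 3.56 RPKM in HF against 3.12 in Control, a difference of 0.17. Ddx58 itself was at 3.35 against 2.95 RPKM, Ifih1, the sensor of long double-stranded RNA, at 1.70 against 1.54, and Dhx58, a regulator of both, at 1.07 against 0.97.

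Among the effectors, Ifit1, which binds viral RNA and blocks its translation (chromosome 19, 34640871 to 34650009), differed most. It was at 0.81 RPKM in PGM, 1.26 in PGF, 1.15 in HM, 2.30 in HF and 0.88 in Control, so HF stood above the other groups, which ran from 0.81 to 1.26. The difference of HF from Control was 1.02, or 2.03-fold. Its chromosomal neighbours Ifit3 and Ifit2, which encode related proteins, differed by 0.42 and 0.06, with Ifit3 at 10.98 RPKM in HF against 8.08 in Control and Ifit2 at 12.1 against 11.6.

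Usp18 encodes the protease that removes Isg15 from proteins and dampens receptor signalling (chromosome 6, 121245906 to 121270917). It was at 0.84 RPKM in PGM, 1.37 in PGF, 0.83 in HM, 1.42 in HF and 0.58 in Control, a difference of 0.83 in HF at a level under the 2 RPKM set for naming. PGF and HF were high and Control was the lowest. Ifitm3, a membrane protein that blocks viral entry (chromosome 7, 141009586 to 141010770), was at 14.6 RPKM in PGM, 18.5 in PGF, 14.3 in HM, 23.6 in HF and 15.4 in Control. With a difference of 0.60, or 1.51-fold, it was the member just inside the threshold, and Rtp4, at 1.49-fold, was just outside it. The neighbouring Ifitm1 and Ifitm2 differed by 0.30 and 0.22.

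The other effectors in HF ranged from Oas1a, an oligoadenylate synthetase, with 0.46 to Bst2, which tethers budding virus to the cell, with -0.22. The interferon-induced GTPase genes Igtp, Irgm1, Gbp3 and Gbp2 differed by 0.41, 0.32, 0.30 and 0.11. Isg15, a ubiquitin-like modifier, differed by 0.41, Oasl2 by 0.36, the secreted glycoprotein gene Lgals3bp by 0.31 and Ifi35 by 0.27. Rsad2, the radical enzyme viperin, differed by 0.16 and the kinase gene Eif2ak2, which stops translation on double-stranded RNA, by -0.03. Parp9, Dtx3l and Parp14, which act in protein ubiquitination and ADP-ribosylation and lie together on chromosome 16, differed by 0.07, -0.01 and 0.04. The mitochondrial nucleotide kinase gene Cmpk2, next to Rsad2 on chromosome 12, differed by 0.02.

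**Figure D2:**
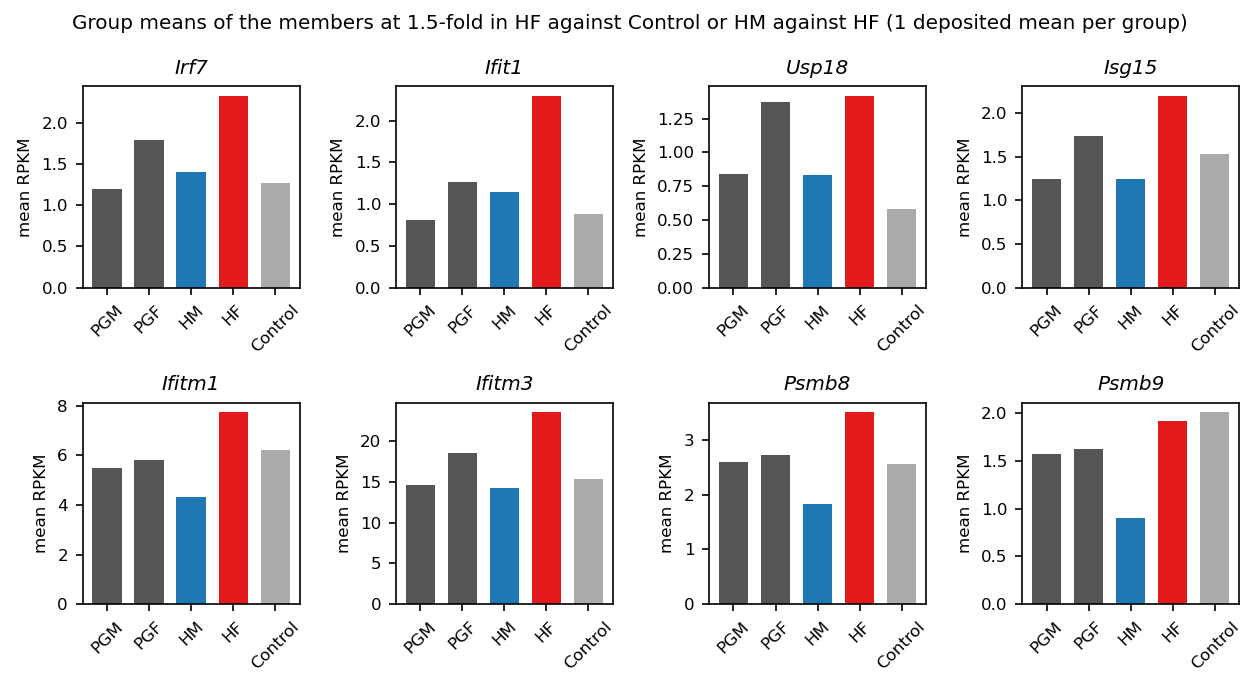
Mean RPKM in the 5 groups, 1 deposited mean per group and no error bar, for the 8 members that reached 1.5-fold in HF against Control or in HM against HF. HF has the tallest bar for 7 of the 8, and Psmb9 is at 1.92 RPKM in HF and 2.01 in Control, with HM lowest at 0.90.

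In antigen presentation, Psmb8, a catalytic subunit of the immunoproteasome (chromosome 17, 34197721 to 34201454), was at 2.60 RPKM in PGM, 2.73 in PGF, 1.83 in HM, 3.51 in HF and 2.57 in Control. It differed by 0.39 in HF and was the highest of the 6 genes in this comparison. The class I heavy chain genes H2-D1 and H2-K1 were at 92.2 and 19.2 RPKM in HF, against 83.6 and 17.8 in Control. Their light chain gene B2m was at 90.5 RPKM in HF against 85.4 in Control. Tap1, a subunit of the peptide transporter, and Psmb9, another immunoproteasome subunit, differed by -0.02 and -0.05. The count of 4 members at 1.5-fold was 7 with a pseudocount of 0.1 and 2 with a pseudocount of 1.

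The comparison of HM with HF asks whether these groups differed from each other, and here all roles lay on the same side. On the deposited scale 38 of 38 members were lower in HM than in HF, against 36 with upper quartile scaling, where Stat2 and Bst2 turned, and 34 with quantile normalization, where Dhx58 and Ifit2 turned as well. Each of the 4 was within 0.03 of 0 on the deposited scale. Among all genes kept, 31% were higher in HM and the median difference was -0.05, against a median of -0.29 over the members. Between the transcripts, 74 of 74 member transcripts averaging 1 RPKM or more were lower in HM, against 68.2% of all such transcripts, although transcripts of 1 gene share reads.

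**Figure D3:**
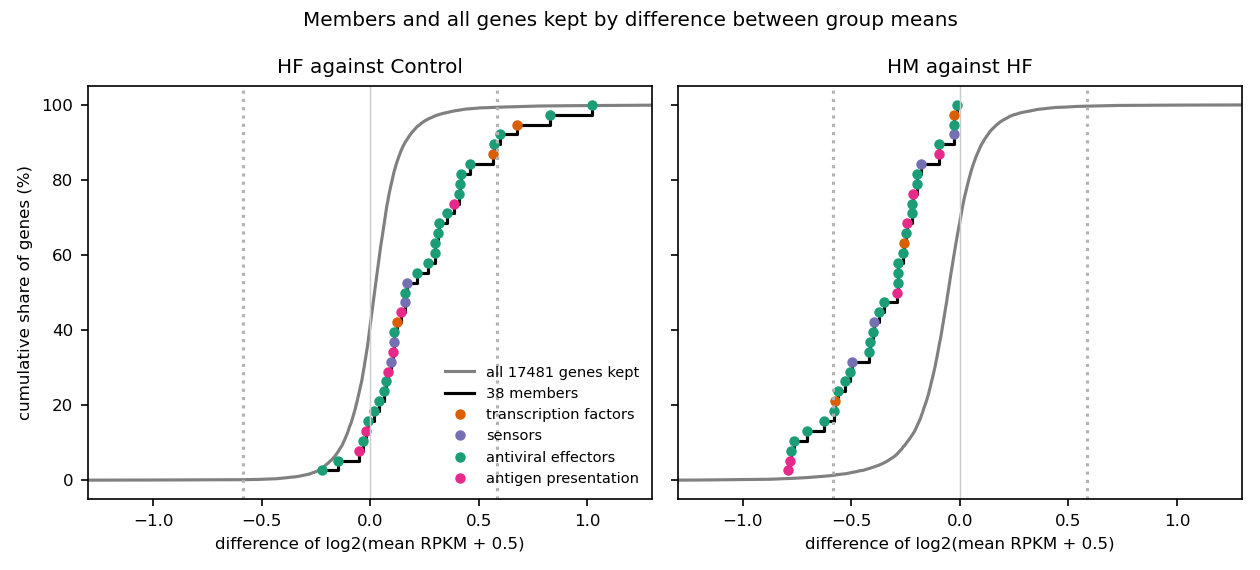
Cumulative share of genes (vertical axis, percent) by difference of log2(mean RPKM + 0.5) for all 17481 genes kept (grey line) and the 38 members (black steps, points coloured by role), for HF against Control and HM against HF. Dotted lines mark 1.5-fold. The members lie to the right of all genes in the HF panel, with medians of 0.17 and 0.02, and to the left in the HM panel, with -0.29 and -0.05.

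In HM, 6 members lay below HF by 1.5-fold or more and 0 above it by as much. Among all genes kept, 1.31% were as far below and 0.366% as far above, and 2.97% of genes with a mean of 1 to 10 RPKM were as far below. The 6 were Psmb9, Psmb8, Ifitm1, Ifit1, Ifitm3 and Isg15, with differences of -0.79, -0.78, -0.78, -0.76, -0.70 and -0.63. Psmb9 lay under the 2 RPKM set for naming in both groups. Isg15 was just inside the threshold, and Rsad2, at 0.82 RPKM in HM against 1.47 in HF, was just outside it with -0.58. The count was 12 with a pseudocount of 0.1 and 10 when transcripts were summed per gene.

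Ifitm1 (chromosome 7, 140967221 to 140969825) was at 5.50 RPKM in PGM, 5.79 in PGF, 4.31 in HM, 7.74 in HF and 6.20 in Control. HM and HF stood at opposite ends of its range, with Control between them. Isg15 (chromosome 4, 156199424 to 156200818) was at 1.24, 1.74, 1.25, 2.20 and 1.53 RPKM in the same order. Ifit1 was at 1.15 RPKM in HM against 2.30 in HF, and Ifitm3 at 14.3 against 23.6. For Ifit1 the HM level was also above Control, by 0.26, so its difference between HM and HF came with a high HF value, while for Ifitm1 HM was below Control by 0.48 and HF above it by 0.30.

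Psmb9 (chromosome 17, 34181987 to 34187764) was at 1.57 RPKM in PGM, 1.62 in PGF, 0.90 in HM, 1.92 in HF and 2.01 in Control. HM was low against each of the other groups. Psmb8, about as low in HM relative to HF, was at 1.83 RPKM in HM against 3.51 in HF. Tap1, whose start lies 226 bases from that of Psmb9 on the opposite strand, was at 1.55 RPKM in HM against 1.93 in HF, a difference of -0.25. The class I genes B2m, H2-K1 and H2-D1 differed by -0.21, -0.29 and -0.10. The medians by role were -0.26 for transcription factors, -0.29 for sensors, -0.35 for effectors and -0.27 for antigen presentation.

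Markers of the brain's coverings and vessels also differed between HM and HF, and their part in the members' differences was not tested. Of all genes kept, 68.6% were lower in HM than in HF. Of 9 markers of meningeal fibroblasts, 9 were lower in HM with a median of -0.90 and a summed level of 175 RPKM in HM against 311 in HF. Of 13 markers of brain endothelium and pericytes, 11 were lower with a median of -0.25 and sums of 615 against 712 RPKM. For microglia 11 of 14 markers were lower in HM, the median was -0.07, the sums were 587 against 601 RPKM, and 0 reached 1.5-fold. Of the 14 markers of peripheral leukocytes, 6 averaged 1 RPKM or more, of which 4 were lower in HM with a median of -0.06, and the sums over the list were 55.5 against 66.3 RPKM. The T cell gene Cd3e was at 0.04 RPKM in HM and 0.01 in HF, and the cytotoxic cell gene Nkg7 was listed at 0 in HF. Among the 6, Mrc1 and Lyz2, which macrophages at the brain's borders express, were at 6.89 and 9.93 RPKM in HM against 11.4 and 15.2 in HF, Ptprc and Ly6c2 differed by -0.05 and -0.08, and the neutrophil genes S100a8 and S100a9 by 0.22 and 0.18. Markers of red blood cells were lower in HM in 3 of 3, with a median of -0.98, and the X-linked RNA Xist was at 26.4 RPKM in HM against 35.4 in HF. Markers higher in HM were those of myelin (9 of 9, median 0.34), thalamus (8 of 8, 0.45) and pituitary (6 of 6, 0.78). Hypothalamic neuron markers were split, with 6 of 11 higher in HM and a median of 0.01.

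Marker lists were also compared between HF and Control, where 58.6% of all genes kept were higher in HF. Meningeal markers were higher in HF in 8 of 9 with a median of 0.21 and a summed level of 311 RPKM in HF against 274 in Control. Endothelial and pericyte markers were higher in 10 of 13 with a median of 0.05, and microglia markers in 11 of 14 with a median of 0.10. Of the 6 leukocyte markers 5 were higher, with a median of 0.12. Myelin markers were higher in 9 of 9 (median 0.09), and red blood cell markers (3 of 3, -0.24), pituitary genes (6 of 6, -0.85), thalamic markers (6 of 8, -0.06) and hypothalamic neuron markers (8 of 11, -0.13) were lower in HF. Ddx3y was at 15.9 RPKM in HF against 2.52 in Control, and Xist at 35.4 RPKM in HF against 44.0 in Control. The part of these differences in the members' values was not tested.

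**Figure D4:**
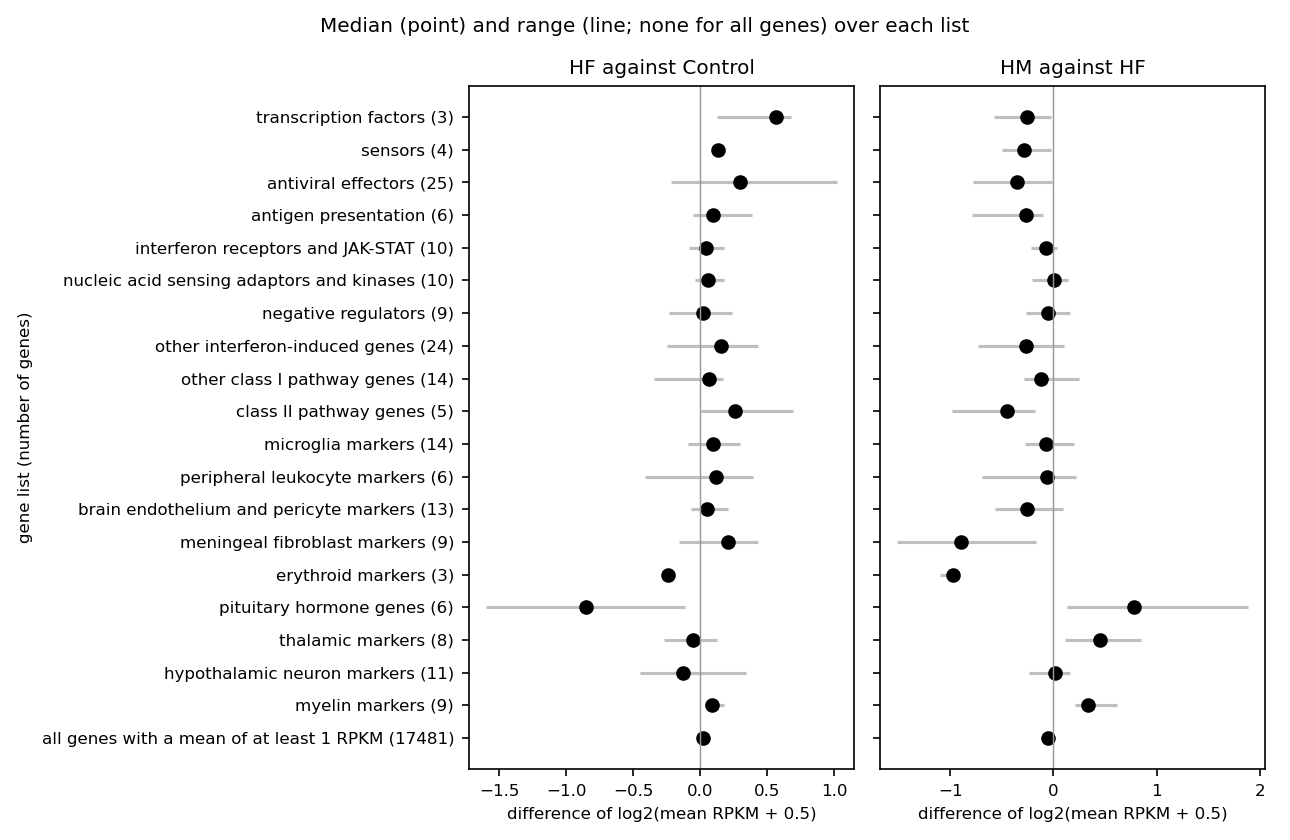
Median (point) and range (line, not drawn for all genes) of the difference of log2(mean RPKM + 0.5) over the 4 roles, 6 pathway lists, 9 marker lists and all genes kept, for HF against Control and HM against HF. The number of genes used stands beside each list. In HM against HF the 4 roles lie between -0.35 and -0.26, with class II genes at -0.45 and meningeal markers at -0.90.

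PGF against Control gave a mixed picture. Of the members 17 were higher and 21 lower (22 higher with quantile normalization), where 44.2% of all genes kept were higher. The median over members was -0.02 and their mean 0.05, with a median of -0.03 over all genes. The transcription factors were higher in 3 of 3 with a median of 0.37, while sensors had -0.05, effectors -0.03 and antigen presentation -0.07. Usp18 and Rtp4 were the 2 members higher by 1.5-fold and 0 were lower by as much, where 2.16% of all genes kept were higher by that much and 1.88% lower. Usp18 differed by 0.79. Rtp4, an interferon-induced receptor transporter protein (chromosome 16, 23520291 to 23614222), was at 1.54 RPKM in PGM, 2.14 in PGF, 1.61 in HM, 2.07 in HF and 1.23 in Control, and differed by 0.61 in PGF.

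The Rtp4 levels of PGF and HF lay close together and Control was the lowest. Irf7, Irf9, Igtp and Ifit1 differed by 0.37, 0.37, 0.38 and 0.35 in PGF, all under the threshold, and Gbp2 and Tap1 by -0.32 and -0.31. With a pseudocount of 1, 0 members reached 1.5-fold. Of all genes kept, 44.2% were higher in PGF than in Control. Pituitary hormone genes were higher in PGF in 6 of 6 with a median of 3.79, myelin markers in 9 of 9 with 0.998 and thalamic markers in 8 of 8 with 0.81. Lower in PGF were hypothalamic neuron markers (9 of 11, median -0.83), meningeal markers (9 of 9, -0.55), red blood cell markers (3 of 3, -0.48), endothelial and pericyte markers (9 of 13, -0.08) and microglia markers (9 of 14, -0.04). The 6 leukocyte markers were split evenly, with a median of -0.02. Their part was not tested.

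In PGM 12 members were higher and 25 lower than in Control, where 50.9% of all genes kept were higher. The median was -0.10 over the members and 0.005 over all genes. At 1.5-fold 0 members were higher and 0 lower, where 2.34% and 2.28% of all genes kept were. Xaf1, which encodes a partner of an apoptosis inhibitor (chromosome 11, 72301629 to 72313733), came nearest. It was at 1.56 RPKM in PGM, 2.30 in PGF, 1.85 in HM, 2.24 in HF and 2.54 in Control, and differed by -0.56 in PGM. These are the values of the middle one of its 3 transcripts. Its most abundant transcript was at 5.56 RPKM in PGM against 6.79 in Control and differed by -0.27, and the lowest differed by -0.34. Trim25 was at 2.10 RPKM in PGM against 3.12 in Control, a difference of -0.48, and Rsad2 differed by -0.45. The largest positive difference was 0.31 for Usp18, and Bst2, one of the more abundant effectors, was at 27.6 RPKM in PGM against 25.95 in Control.

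Of all genes kept, 50.9% were higher in PGM than in Control. In PGM 9 of 9 meningeal markers were lower, with a median of -0.86, and 12 of 13 endothelial and pericyte markers, with -0.22. Also lower were 3 of 3 red blood cell markers, with -0.90, and 9 of 11 hypothalamic neuron markers, with -0.80. Higher in PGM were thalamic markers (8 of 8, median 1.10), myelin markers (9 of 9, 0.67), leukocyte markers (4 of 6, 0.14) and microglia markers (10 of 14, 0.06), and pituitary genes were split evenly (3 of 6, -0.16). Among the leukocyte markers S100a8, S100a9, Ptprc and Ly6c2 differed by 0.70, 0.77, 0.06 and 0.22, while Mrc1 and Lyz2 differed by -0.38 and -0.40. The part of these differences was not tested.

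PGM and PGF, set against each other, had 8 members higher and 29 lower in PGM with a median of -0.10, where 62.2% of all genes kept were higher in PGM. At 1.5-fold 0 members were higher and 0 lower, against 0.435% and 0.555% of genes. Usp18, Oasl2, Igtp, Xaf1, Ifit1 and Irf7 had the largest differences, between -0.48 and -0.43. Lower in PGM than in PGF were also meningeal markers (9 of 9, median -0.41), endothelial and pericyte markers (11 of 13, -0.10), red blood cell markers (3 of 3, -0.43), myelin markers (9 of 9, -0.31) and pituitary genes (6 of 6, -4.49). Higher in PGM were microglia markers (10 of 14, 0.07), leukocyte markers (4 of 6, 0.07), thalamic markers (7 of 8, 0.12) and hypothalamic neuron markers (7 of 11, 0.16). Among the leukocyte markers Mrc1 and Lyz2 went the other way, with -0.14 and -0.15. The part of these differences was not tested.

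HM against Control had 13 members higher and 25 lower, where 39.8% of all genes kept were higher. The median was -0.12 over the members and -0.03 over all genes. Psmb9 was the 1 member past 1.5-fold on the lower side, by 0.84 on the log2 scale, and 0 were higher by that much, where 0.864% of all genes kept were lower and 0.675% higher by 1.5-fold. Ifitm1, at -0.48, was just outside the threshold, followed by Rsad2 at -0.42 and Psmb8 at -0.40. The transcription factors were on the other side, higher in 3 of 3 with a median of 0.10, led by Irf9 with 0.31. Lower in HM were red blood cell markers (3 of 3, median -1.21), meningeal markers (9 of 9, -0.71), endothelial and pericyte markers (11 of 13, -0.21) and hypothalamic neuron markers (7 of 11, -0.13). Higher in HM were myelin markers (9 of 9, 0.43) and thalamic markers (8 of 8, 0.40). Microglia markers (7 of 14 higher, -0.01), leukocyte markers (3 of 6, -0.08) and pituitary genes (3 of 6, 0.09) were split evenly. The part of these differences was not tested.

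The promoters of the members were searched for the element that the complex with Stat2 and Irf9 binds. The RefSeq promoter windows on GRCm38 take in 250 bases before and 50 after the annotated start, and 33 members had one. The core of GAAA, any 2 bases and GAAA again, or TTTC, any 2 bases and TTTC where it lies on the other strand, was present in windows of 17 of the 33, against 3.99% of 27025 genes. By role it was found in 13 of 21 effectors, 2 of 3 sensors, 1 of 3 transcription factors and 1 of 6 antigen presentation genes. The core TTCNNNGAA of STAT homodimer sites, a palindrome, was present in 8 of 33 members against 9.55% of genes. A share above that of all genes could be foreseen from the choice of interferon response genes by name. It is thus a trait of the list and no result of these samples. A match describes letters in a window and not a bound site.

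The 250 bases before the Ifit1 start are shown because this member differed most in HF, with the matches in capitals, 5′ to 3′ on the gene's strand, at chr19:34640639-34640888 (plus strand).
Ifit1: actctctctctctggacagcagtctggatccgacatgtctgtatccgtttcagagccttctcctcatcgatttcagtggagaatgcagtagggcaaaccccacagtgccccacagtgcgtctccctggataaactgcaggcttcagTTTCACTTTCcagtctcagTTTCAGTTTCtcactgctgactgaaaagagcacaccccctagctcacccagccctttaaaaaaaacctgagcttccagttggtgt

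Stretches of 70 bases around the matches follow for 3 more effectors with a large difference between HM and HF, Isg15 (chr4:156200851-156200920, minus strand), Rsad2 (chr12:26456533-26456602, minus strand) and Ifit3 (chr19:34583360-34583429, plus strand). They are set beside the GTPase gene Irgm1 (chr11:48871408-48871477, minus strand) and B2m (chr2:122147518-122147587, plus strand), which differed less.
Isg15: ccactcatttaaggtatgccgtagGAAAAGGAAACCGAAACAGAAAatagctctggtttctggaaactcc
Rsad2: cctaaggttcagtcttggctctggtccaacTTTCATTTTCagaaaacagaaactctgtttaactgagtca
Ifit3: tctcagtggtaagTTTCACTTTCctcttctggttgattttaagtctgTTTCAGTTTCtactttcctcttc
Irgm1: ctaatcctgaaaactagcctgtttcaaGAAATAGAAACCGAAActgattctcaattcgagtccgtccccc
B2m: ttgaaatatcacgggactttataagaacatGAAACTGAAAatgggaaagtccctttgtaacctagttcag

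Isg15 holds 3 overlapping matches, Ifit1, Ifit3 and Irgm1 hold 2 each, and Rsad2 and B2m hold 1. The difference of HM from HF was -0.63 for Isg15, -0.76 for Ifit1, -0.58 for Rsad2, -0.56 for Ifit3, -0.28 for Irgm1 and -0.21 for B2m. Over the 17 members with a match the median difference was -0.39 in HM against HF and 0.22 in HF against Control. Over the 16 members whose window held no match it was -0.27 and 0.15. The sets also differ in role, with a match in 13 of 21 effectors and 1 of 6 antigen presentation genes. The part of role in these medians was not tested. The ranges overlapped widely, from -0.76 to -0.01 with a match and from -0.79 to -0.03 without one in HM against HF. Psmb9, Psmb8 and Ifitm1, the members furthest below HF in HM, had no match in their windows, with -0.79, -0.78 and -0.78. Bst2 had a match and differed by -0.01. The genes whose sequences are shown thus do not stand for all members.

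**Figure D5:**
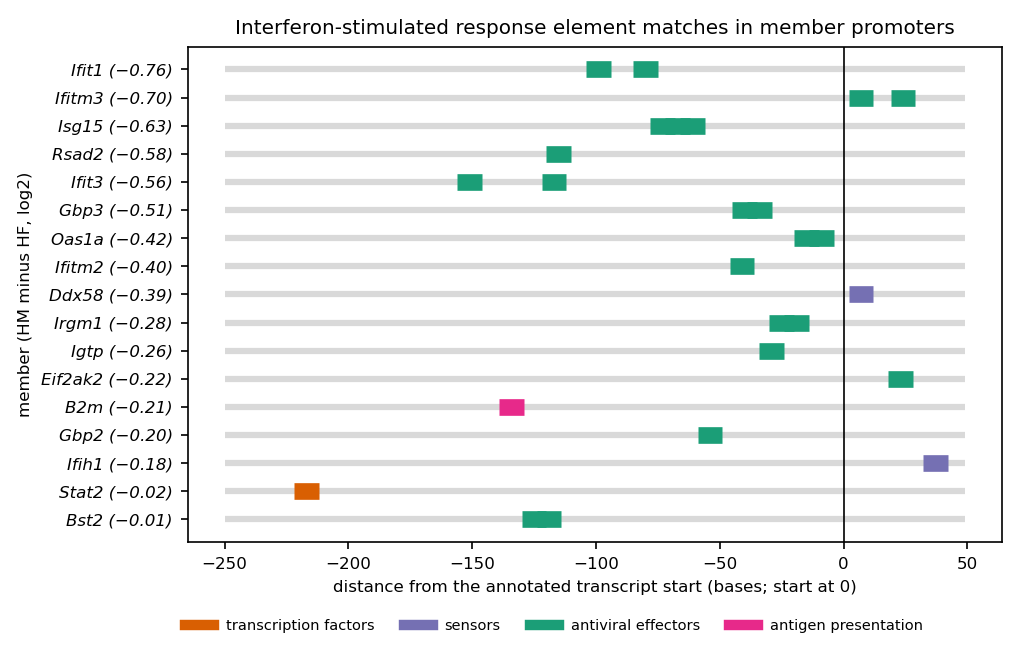
Position of each match to this core (coloured by role) in the promoter windows of the 17 members that hold one, in bases from the annotated start at 0, with grey bars for the window. Members run from the most negative difference of HM from HF at the top (Ifit1, -0.76) to the least at the bottom (Bst2, -0.01, whose sign turned under other scalings).

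Other genes of the pathway were taken from lists. The interferon genes themselves were near 0. Of the 7 found, among them Ifnb1, Ifng and Ifnk, 0 averaged 1 RPKM or more, their summed level was between 0.70 and 1.19 RPKM in every group, and Ifnb1 was listed at 0 in PGF, HF and Control. The 10 receptor and JAK-STAT genes all averaged over 1 RPKM and differed little, with medians of 0.05 in HF against Control and -0.08 in HM against HF and 0 genes at 1.5-fold. The receptor gene Ifnar1 was at 54.7 RPKM in HM, 59.6 in HF and 59.3 in Control.

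Adaptors and kinases of nucleic acid sensing had medians of 0.06 in HF against Control and 0.002 in HM against HF, and negative regulators 0.02 and -0.05, each with 0 genes at 1.5-fold.

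Interferon-induced genes outside the member list lay in the same direction as the members in both comparisons. Of 24 that averaged 1 RPKM or more, 21 were higher in HF than in Control with a median of 0.15, where 58.6% of all genes kept were higher. Of these 24, 0 reached 1.5-fold. In HM against HF 23 of 24 were lower with a median of -0.26, where 68.6% of all genes kept were lower. Slfn2 and Gbp4 were the 2 at 1.5-fold, at 0.79 and 0.80 RPKM in HM against 1.65 and 1.60 in HF, levels under 2 RPKM. The gene listed as I830012O16Rik, a RefSeq synonym of Ifit3b, was at 5.11 RPKM in HM, 7.46 in HF and 5.42 in Control. It is a near copy of Ifit3, and how reads shared by both were assigned is not given, so their values are uncertain as single genes. Irgm2, also among the 24, shares exon sequence with the member Igtp on the same strand. These 2 genes of the list are thus not fully separate from the members.

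Of 14 other genes of the class I pathway, 11 were higher in HF than in Control with a median of 0.06. In HM against HF 11 were lower with a median of -0.12, and 0 were at 1.5-fold in either comparison. Of all genes kept, 58.6% were higher in HF than in Control and 68.6% lower in HM than in HF. The count in HM against HF thus lay nearer the general shift than that in HF against Control, and both rest on 14 genes. Psmb10, the remaining immunoproteasome catalytic subunit, was at 49.4 RPKM in HM, 54.1 in HF and 49.5 in Control. Its differences were 0.13 in HF against Control and -0.13 in HM against HF, beside -0.78 and -0.79 for Psmb8 and Psmb9 in HM against HF.

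Class II genes, which present peptides on professional antigen-presenting cells, were higher in HF than in Control in 5 of 5 with a median of 0.26. They were lower in HM than in HF in 5 of 5 with a median of -0.45. Among all genes kept, 58.6% were higher in the first comparison and 68.6% lower in the second. H2-Aa was at 4.58 RPKM in PGM, 5.90 in PGF, 3.97 in HM, 8.37 in HF and 4.98 in Control, a difference of 0.70 in HF and -0.99 in HM against HF. Cd74, the invariant chain, was at 7.50, 10.1, 8.13, 15.1 and 11.9 RPKM in the same order, lower in PGM than in Control by 0.63 and in HM than in HF by 0.85 on the log2 scale. HF was the highest group for both. H2-Ab1 had another order, at 23.7, 29.0, 18.3, 20.8 and 17.3 RPKM, and differed by 0.73 in PGF against Control.

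Several members cannot be read as single genes with certainty. In the annotation 16 of the 38 share exon sequence with another gene, 11 of them on the opposite strand, including the pairs Parp9 with Dtx3l and Psmb9 with Tap1, and the use of strand in counting is not given. The class I heavy chain genes and the Ifit, Ifitm, Oas, Gbp and Irg families have close relatives whose reads may have been split or shared. Of the 17 members with more than 1 transcript at a mean of 1 RPKM or more, 3 had transcripts in both directions in HF against Control (Parp9, Dtx3l and Tap1), and 0 in HM against HF.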

How the data were processed

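Total RNA of the hypothalamus was sequenced in 15 samples, 3 in each of 5 groups, which the titles name. The deposited table gave RPKM values (reads scaled to transcript length and to mapped reads) that the authors had averaged over each group, per the file headers. Values per library were not used here, so no test, SD or interval could be computed and the depth is unknown. FastQC and Novoalign 2.08 with the build mm10 are named in the submitters' processing notes. The counting program, its use of strand and its handling of reads shared by transcripts or by close paralogs were not given in the sources used here.

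A second header line inside the table was dropped. Each gene name got the median of its transcripts, 49404 in all. The scale of differences was log2(mean RPKM + 0.5), on which those of low genes are understated. The count at 1.5-fold was made in 6 comparisons. The count over all genes used the 17481 names with a mean of at least 1 RPKM, and all 38 members were described, whether or not they passed this filter. The plan had also foreseen limma for values per library.

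The genes named are members at 1.5-fold with at least 2 RPKM in either group compared, the members with the highest levels in each role, those nearest the threshold, and genes of the 7 pathway lists by the same threshold. Any other gene was picked with its values in view. The members and lists were chosen with earlier results of these data known. Of 232 listed names, 2 were found through a RefSeq synonym and 9 were not found or repeated another name. Positions come from GENCODE M21 and promoters from RefSeq, both on GRCm38. The calculation was tested on simulated data. Alternatives were pseudocounts of 0.1 and 1, filters of 1 and 3 RPKM, upper quartile scaling, the highest or summed transcript, a 2-fold threshold and HF as the reference. Quantile normalization was added after seeing the data. Python 3.11.15, numpy 2.4.6, pandas 2.3.3 and matplotlib 3.10.9 were used. A result on 1 pathway gene is not reported here.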

Additional observations from a re-analysis of the deposited data

How the results depend on the processing

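No paired analysis was possible because the table holds 1 mean per group, and for the same reason no replicate could be left out. Of 562 recomputed values, 479 stayed within 0.1 on the log2 scale or, for counts, within 1.5 times, 83 moved further. The sign changed in 8. The choice of the highest transcript and the filter of 1 RPKM moved none of their 67 values each. By construction, a filter or a stricter threshold leaves fewer genes, and another pseudocount rescales the differences of low genes. HF as the reference makes other comparisons, and there 22 values moved and 3 reversed. The cause of the remaining moves was not tested. With a pseudocount of 0.1, members at 1.5-fold numbered 7 higher in HF against Control, 2 lower in PGM against Control, 2 lower in PGM against PGF and 12 lower in HM against HF. With a pseudocount of 1, 2 members were higher in HF and 0 in PGF against Control. Upper quartile scaling gave 1 lower member in PGM against Control. Summed transcripts gave 2 lower members in HM against Control and 10 lower in HM against HF.

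At a 2-fold threshold the counts were 1 higher in HF, 0 higher in PGF and 0 lower in HM against Control, and 0 lower in HM against HF. Among members with a mean of at least 3 RPKM they were 1 higher in HF, 0 higher in PGF and 0 lower in HM against Control, and 2 lower in HM against HF. With this filter the median of the transcription factors was 0.20 in HM and 0.35 in HF against Control, and -0.14 in HM against HF. The median of the effectors was -0.069 in PGM against PGF and -0.25 in HM against HF, and that of antigen presentation 0 in PGM against Control.

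With HF in place of Control, 6 members were lower in PGM, 1 lower and 0 higher in PGF, and 6 lower in HM. In PGM the median over all members was then -0.35, with -0.40 for transcription factors, -0.31 for sensors, -0.41 for effectors and -0.24 for antigen presentation. In PGF these were -0.20, -0.20, -0.19, -0.22 and -0.19. In HM they were -0.29 over all members, -0.26 for transcription factors, -0.29 for sensors and -0.35 for effectors. The transcription factors in PGM, PGF and HM, and Usp18 in PGF with -0.038, changed sign. Quantile normalization turned the PGF median to 0.033 over the members and 0.031 over the effectors, and a pseudocount of 1 and the filter of 3 RPKM turned that of antigen presentation in PGM against PGF, to 0.0005 and 0.034.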
